A study of Mus musculus with 8 samples.

Results

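The genes for the subunits of oxidative phosphorylation (OXPHOS) were examined for H3K9ac, an acetyl mark on histone H3 found at the promoters of active genes, in bone marrow (BM) cells of leukaemia-prone mice. Members were chosen by gene symbol alone. They were the nuclear protein-coding genes of GENCODE M21 on mm10 whose symbols begin with *Ndufa*, *Ndufb*, *Ndufc*, *Ndufs* or *Ndufv* and a digit, with *Uqcr*, with *Atp5*, or with *Cox* and a digit from 4 to 8, and *Sdha*, *Sdhb*, *Sdhc* and *Sdhd*. The rule gave 85 of 21938 genes, of which 35 were assigned to complex I, 4 to complex II, 8 to complex III, 20 to complex IV and 18 to complex V. It also takes in *Atp5s* (under complex V) and *Cox7a2l* (under complex IV), which were treated as assembly genes rather than subunits. Without them and the isoforms of other tissues, 75 members remain. One symbol, *Atp5o*, stands for 2 annotated gene models. *Cyc1*, the cytochrome c1 subunit of complex III, and the subunits encoded by the mitochondrial DNA are outside the rule.

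ChIP-seq had been performed on whole BM cells of *NUP98-HOXD13-tg* mice on a C57BL/6 background, a model of myelodysplastic syndrome that carries a fusion of a nucleoporin with a homeobox gene. All groups carried this transgene. *GFI1-36S* mice express the common form of the transcriptional repressor GFI1, *GFI1-36N* mice a variant with asparagine in place of serine, and *GFI1-KD* mice a reduced level of GFI1. Mice of each genotype received curcumin, a plant polyphenol used as an inhibitor of histone acetyltransferases, at 20 mg/kg weekly by intraperitoneal injection, or vehicle (0 mg/kg), which was DMSO by the study's methods. The ages of the mice and the number of mice behind a library are not given in the sources used here. There was 1 library for each of the 6 groups, so that the differences below could not be set against a spread between mice, and p-values are not given.

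In *GFI1-36S*, the name of each list gives the treatment that its sample label does not give. The labels were followed, and every *GFI1-36S* difference below has the opposite sign if the names are right. In *GFI1-36N*, the vehicle list is named +ki and the curcumin list kiki, which read as heterozygous and homozygous, so that zygosity and treatment cannot be told apart there. The *GFI1-36S* curcumin library stood apart from the other 5. It held 20354 peaks against 30784 to 49213 in the others and was the only one with peaks on the Y chromosome, 3 in number. All 14 T-cell marker genes examined had a promoter peak in it, against 5 to 9 in the other libraries, and *Cd3e*, which encodes a chain of the T-cell receptor complex, had a peak in no other library. None of 18 neutrophil markers, 2 of 12 erythroid markers and 1 of 10 stem and progenitor markers had a promoter peak in it, against 9 to 17, 6 to 12 and 9 to 10 in the other libraries. B-cell markers had a peak at 0 to 3 of 9 genes in every library. The promoter of *Gfi1* itself ranked between 21.0 and 68.8 on the scale described below, and the mark on it does not check the alleles.

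Oxidative phosphorylation takes electrons from NADH at complex I and from succinate at complex II, passes them over complex III and cytochrome c to oxygen at complex IV, and uses the proton gradient built on the way to make ATP at complex V. Most subunits are encoded in the nucleus and are needed in nearly fixed ratios to one another. Their genes are expressed in almost every cell type, and several have a counterpart used mainly in muscle, testis or lung. The transcription factors NRF1, GABP (an ETS factor) and YY1 are known to act at many of these promoters.

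For each gene the strongest peak within 1 kb of any transcription start site (TSS) was taken from each list by its fold enrichment, the ratio of the pileup at its summit to the background modelled around it. It was ranked from 0 to 100 among all genes with a promoter peak in the same library, so that 100 is the strongest promoter of the library. The lists are not normalized to each other, and ranks were therefore used to compare them. A gene with no peak was given a rank of 0, and a difference of 10 rank points or more between vehicle and curcumin was counted. The whole number of fragments at each summit was recovered, where possible, from the fold enrichment and p-value. A counting interval (95%) for the ratio of curcumin to vehicle fragments was then given at each promoter with a count in both libraries. These intervals cover counting error only and not the difference between mice. Because whole BM was used, a change in the mark per cell and a change in the mixture of cells cannot be told apart in any comparison below.

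Promoter H3K9ac was present at nearly all subunit genes in these cells. A peak was found in all 6 libraries at 74 of the 85 members (87.1%), whereas 9341 of 21938 genes (42.6%) met this condition. No library had a peak at 8 members, and 3 members had a peak in some libraries only. The member peaks were also strong for their libraries. Among members with a peak, the median rank with vehicle and curcumin was 68.3 and 69.6 in *GFI1-36S*, 66.3 and 69.8 in *-36N* and 62.1 and 67.1 in *-KD* mice, where the median over all genes with a peak lay between 49.6 and 50.2. Between 35.5% and 44.6% of the members with a peak ranked above 75. In total, 17 of the 74 members with a peak in all libraries (23.0%) ranked above 75 in every library, against 1328 of 9341 genes (14.2%). As is usual for this mark, the summits sat just downstream of the start site, with a median distance of 196.5 bp over 444 summits, and 85.1% of them were downstream. No 2 members shared a peak.

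**Figure D1:**
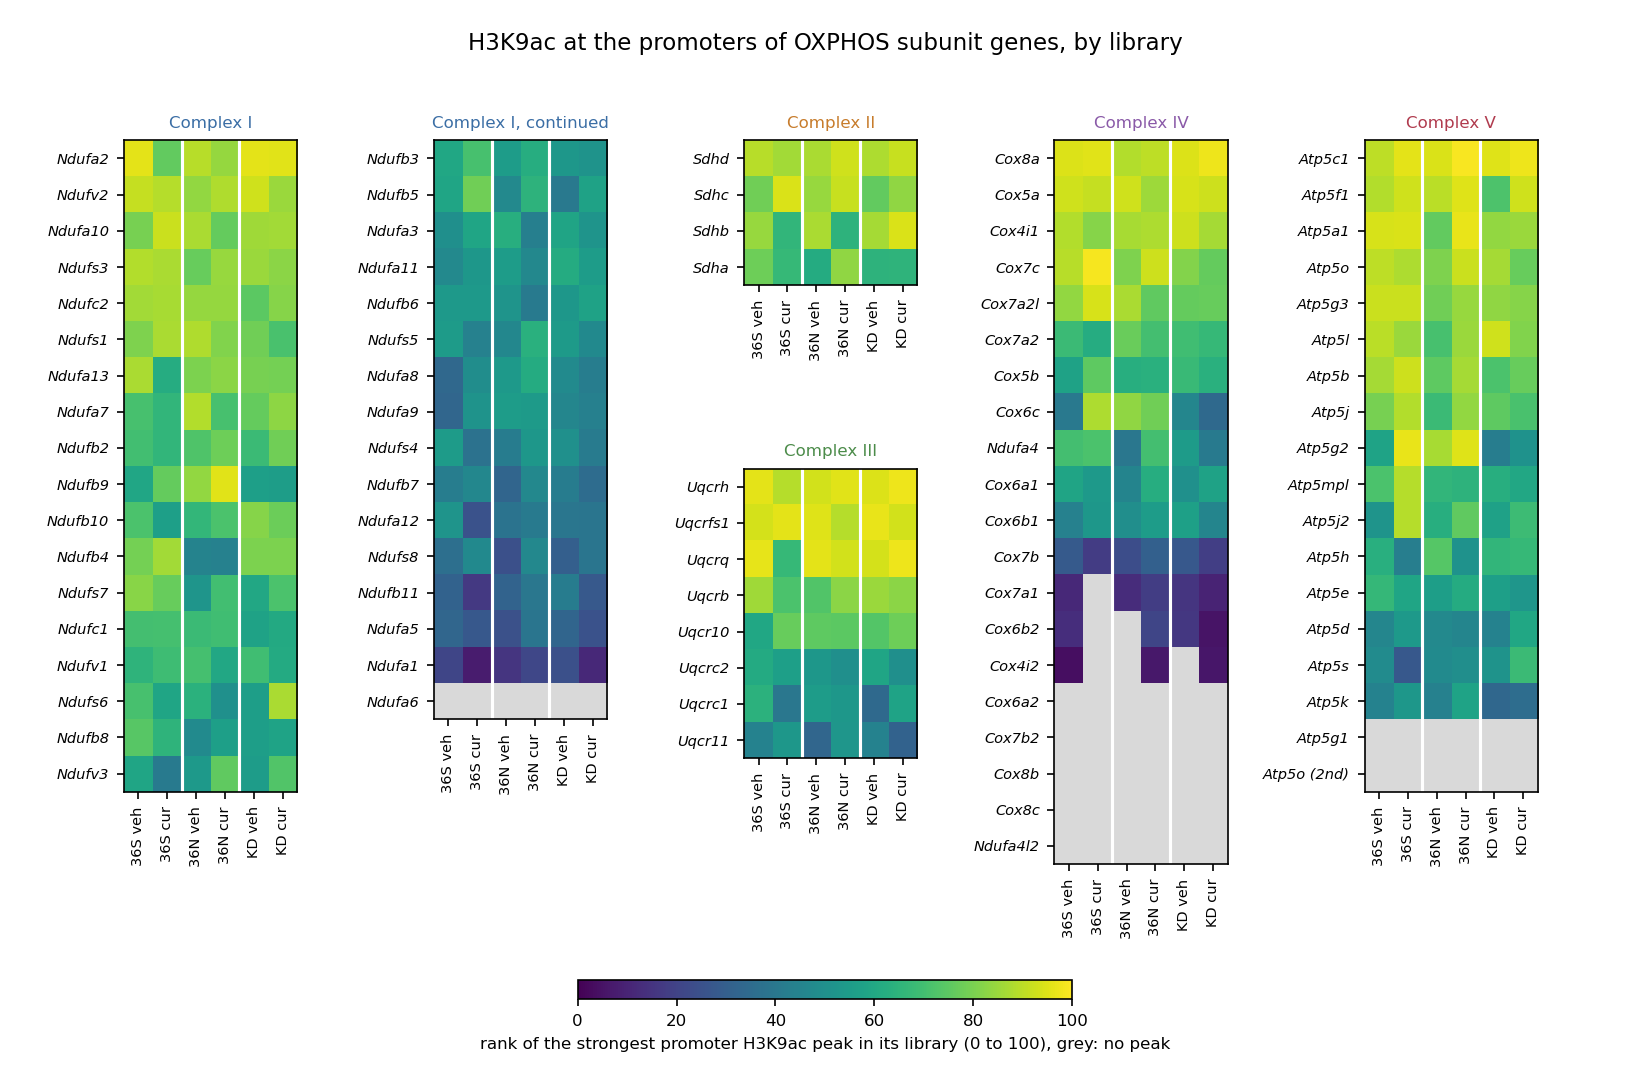
Rank of the strongest promoter H3K9ac peak (0 to 100, colour) of 84 of the 85 OXPHOS subunit genes (rows) in the 6 libraries (columns, veh for vehicle and cur for curcumin), by complex and ordered by mean rank; grey marks no peak. The median member with a peak in every library spans 19.7 rank points over the 6 columns, against 22.5 for all genes with such a peak, and the grey blocks hold the 8 members with no peak and parts of *Cox7a1*, *Cox6b2* and *Cox4i2*.

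The 5 members with the highest mean rank over the 6 libraries came from complexes V, III and IV. *Atp5c1*, which encodes the central shaft (gamma subunit) of ATP synthase, lies at chr2:10056016-10080510 and ranked 90.1, 94.5 and 95.3 with vehicle and 96.0, 99.0 and 97.5 with curcumin in *GFI1-36S*, *-36N* and *-KD* mice. *Uqcrh*, the hinge subunit of complex III on chr4:116066965-116075071, ranked between 89.0 and 97.4, and *Uqcrfs1*, the Rieske iron-sulfur subunit of the same complex, between 88.9 and 96.8. *Cox8a* and *Cox5a*, small structural subunits of complex IV, ranked between 88.6 and 97.5 and between 85.4 and 93.9. All 5 stayed above a rank of 75 in each library. In complex II, which has only 4 subunits, *Sdhd*, a membrane anchor, was the highest member with a range of 86.2 to 92.8. In complex I *Ndufv2*, an iron-sulfur subunit of the NADH-oxidizing arm, ranked between 84.0 and 92.7.

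The promoters of highly ranked members, 1 from each complex, are shown so that the letters under the strongest peaks can be read. They were taken from RefSeq on GRCm38.p6, the assembly of mm10 for members with an entry. Each line gives 150 bases before and 30 bases after the start of the gene, 5′ to 3′ on its own strand, for *Ndufv2* chr17:66101530-66101709 (minus strand), *Sdhd* chr9:50603820-50603999 (minus strand), *Uqcrh* chr4:116075041-116075220 (minus strand), *Cox8a* chr19:7217587-7217766 (minus strand) and *Atp5c1* chr2:10080481-10080660 (minus strand). Capitals mark an exact match to the ETS motif CCGGAAGT on either strand.
Ndufv2: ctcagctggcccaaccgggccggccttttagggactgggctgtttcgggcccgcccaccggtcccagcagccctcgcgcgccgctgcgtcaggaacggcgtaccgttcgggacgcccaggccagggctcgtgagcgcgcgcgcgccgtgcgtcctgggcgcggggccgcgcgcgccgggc
Sdhd: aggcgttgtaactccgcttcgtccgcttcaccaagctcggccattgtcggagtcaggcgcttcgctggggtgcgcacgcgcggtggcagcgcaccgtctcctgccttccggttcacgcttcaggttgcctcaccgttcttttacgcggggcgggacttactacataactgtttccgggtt
Uqcrh: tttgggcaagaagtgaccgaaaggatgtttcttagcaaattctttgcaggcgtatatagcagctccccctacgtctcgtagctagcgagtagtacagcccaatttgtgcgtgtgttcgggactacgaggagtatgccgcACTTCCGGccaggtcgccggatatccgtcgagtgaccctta
Cox8a: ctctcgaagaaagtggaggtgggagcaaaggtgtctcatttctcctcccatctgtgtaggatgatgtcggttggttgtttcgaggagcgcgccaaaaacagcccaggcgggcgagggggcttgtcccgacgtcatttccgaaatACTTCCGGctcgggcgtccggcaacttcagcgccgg
Atp5c1: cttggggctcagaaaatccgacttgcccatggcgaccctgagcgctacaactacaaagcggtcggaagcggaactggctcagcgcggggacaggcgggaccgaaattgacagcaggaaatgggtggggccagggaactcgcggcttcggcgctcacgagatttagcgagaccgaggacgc
The motif begins 11 bases before the start of *Uqcrh* and 6 bases before that of *Cox8a*. A further copy in *Cox8a* begins past the printed stretch, at base 32 when the start is base 1. The windows of *Ndufv2*, *Sdhd* and *Atp5c1* hold neither this motif nor those for NRF1 and YY1 named below.

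A promoter entry of 300 bases (250 before and 50 after the start) was matched for 68 of the 84 member symbols. Among those not matched were *Atp5a1*, *Atp5mpl*, *Cox4i1*, *Cox4i2*, *Cox6a2*, *Cox6c*, *Cox8c*, *Ndufa2*, *Ndufa4l2*, *Ndufb9*, *Ndufs1*, *Sdhc*, *Uqcrb*, *Uqcrc2* and *Uqcrq*. Among the 62 matched members with a peak in all libraries, the NRF1 motif CGCATGCG occurred in 9 (14.5%), against 5.30% of the 7435 protein-coding genes with such a peak. The YY1 motif AAGATGGCG occurred in 7 (11.3%), against 4.37%, and the ETS motif in 5 (8.06%), against 11.3%. Over all 17492 promoters of protein-coding genes, the shares were 2.77%, 2.14% and 5.69%. Both strands were searched, and none of the 3 motifs holds another. The member windows were not richer in G and C than the others, with a median of 58.4% against 61.5% and a median of 19 CpG against 22.

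The YY1 motif lay in the same place in most members that had it. In 6 of the 7 it was on the strand of the gene and began between base 23 and base 36 of the transcript, counting the start as base 1. Of the 325 genes with a peak in all libraries and this motif, 176 (54.2%) had it on their own strand after the start. The 6 sites are shown with 6 bases on each side and with the motif in capitals, since their placement is shared by these members. They are at chr6:126849101-126849121 (minus strand) for *Ndufa9*, chr3:51408919-51408939 (minus strand) for *Ndufc1*, chr13:114388045-114388065 (minus strand) for *Ndufs4*, chr13:73328435-73328455 (minus strand) for *Ndufs6*, chr10:80249467-80249487 (plus strand) for *Ndufs7* and chr5:145191504-145191524 (minus strand) for *Atp5j2* on GRCm38.p6.
Ndufa9: tgggagAAGATGGCGgccgcc
Ndufc1: cggaacAAGATGGCGccgtcc
Ndufs4: tacaggAAGATGGCGgcggtc
Ndufs6: accggcAAGATGGCGgcggtg
Ndufs7: gaggccAAGATGGCGgcgctg
Atp5j2: gacttcAAGATGGCGtcactc
In *Atp5j*, the coupling factor 6 of ATP synthase, the YY1 motif began 88 bases before the start and an NRF1 motif 147 bases before it. Members with the YY1 motif had a median mean rank of 66.1 (n = 7) and those without it 65.8 (n = 55). Members with the NRF1 motif had 53.1 (n = 9) against 67.4 (n = 53), and members with the ETS motif 84.1 (n = 5) against 65.8 (n = 57). These medians are descriptions of a few genes, and a match of letters is not evidence that a factor was bound.

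Most of the members with no peak or the weakest peaks were isoforms known from other tissues. Complex IV has several subunits with a widely used gene and a counterpart, and the peaks followed this division. *Cox4i1* ranked between 81.7 and 92.5, while *Cox4i2*, its lung isoform, had a peak in 3 libraries with ranks of 3.85 to 6.34. *Cox6b1* ranked between 43.8 and 56.9, and *Cox6b2*, its testis isoform, between 5.39 and 20.9 in the 4 libraries with a peak. *Cox7a2* ranked between 62.0 and 77.3, and *Cox7a1*, its heart and muscle isoform, between 9.80 and 18.3 in 5 libraries. *Cox6a2* and *Cox8b*, known from heart and muscle, and *Cox7b2* and *Cox8c*, known from testis, had no peak in any library, whereas *Cox6a1* ranked between 45.1 and 62.2, *Cox8a* between 88.6 and 97.5, and *Cox7b* between 17.8 and 30.5. These 4 genes lay in stretches with no peak in any list, of 102432 bp for *Cox6a2*, 25079 bp for *Cox8b*, 2568357 bp for *Cox7b2* and 250256 bp for *Cox8c*, and whether peaks there had been filtered was not tested. *Ndufa4*, a subunit of complex IV despite its name, ranked between 39.6 and 71.8, and its counterpart *Ndufa4l2* had no peak, in a stretch of 7254 bp. The ranges of *Cox4i1*, *Cox6b1* and *Cox7a2* did not overlap those of their counterparts *Cox4i2*, *Cox6b2* and *Cox7a1*. The counterparts with no peak in any library have no range to compare. *Cox4i2* (2.68), *Cox6b2* (9.22) and *Cox7a1* (11.3) had the lowest mean ranks of the 77 members with a peak in any library, with no peak set to 0.

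**Figure D2:**
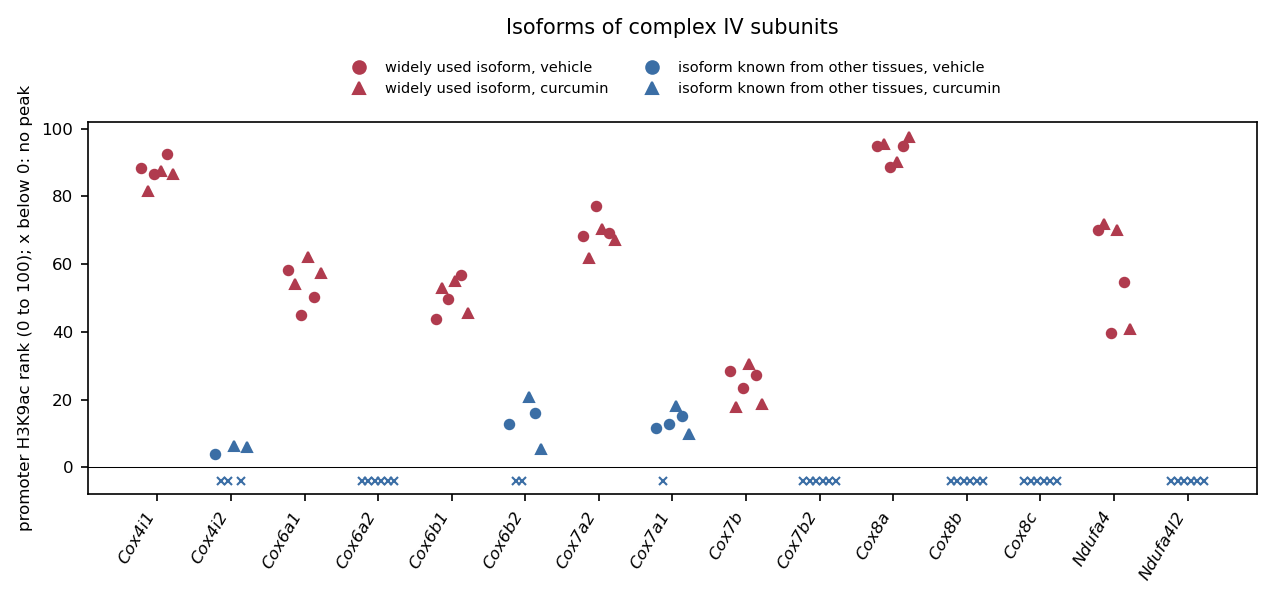
Promoter H3K9ac rank (0 to 100) of complex IV subunit genes with a widely used isoform (red) and a counterpart known from other tissues (blue), with circles for vehicle and triangles for curcumin libraries in the order *GFI1-36S*, *-36N* and *-KD*; crosses below 0 mark libraries with no peak. The widely used gene lies above its counterpart where both have a peak, as with *Cox4i1* (81.7 to 92.5) over *Cox4i2* (3.85 to 6.34). Other counterparts, such as *Ndufa4l2* beside *Ndufa4* (39.6 to 71.8), have no peak and so no rank to compare.

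The other 3 members without a peak were *Ndufa6*, an accessory subunit of complex I, *Atp5g1*, one of the genes for the ring of ATP synthase, and the second gene model of *Atp5o*. The first model of *Atp5o*, which encodes the subunit joining the catalytic head to the stalk, ranked between 76.6 and 92.2, and its peak lay at least 3193 bp from the start of the second model. *Ndufa6* lay in a stretch of 43129 bp with no peak in any list, chr15:82336638-82379766, together with the starts of *Pheta2* and *Smdt1*. *Atp5g1* lay in a stretch of 170000 bp with no peak, chr11:96035850-96205849, together with those of *Calcoco2*, *Hoxb13*, *Ttll6* and *Ube2z*. Several genes in both stretches are known to be active in most cells, and whether peaks there had been filtered was not tested. No value is therefore read for *Ndufa6* and *Atp5g1*. The related genes *Atp5g2* and *Atp5g3*, which encode the same ring protein, ranked between 42.5 and 96.8 and between 78.1 and 92.1.

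The 3 members on the X chromosome were among the lowest of the widely used genes. *Ndufa1*, an accessory subunit of complex I, ranked 21.0, 15.3 and 24.3 with vehicle and 7.79, 21.2 and 11.6 with curcumin in *GFI1-36S*, *-36N* and *-KD* mice. In the same order, the ranks of *Cox7b* were 28.4, 23.5 and 27.4 with vehicle and 17.8, 30.5 and 18.7 with curcumin. Those of *Ndufb11*, another accessory subunit of complex I, were 31.3, 31.8 and 41.9 with vehicle and 16.8, 39.7 and 27.7 with curcumin. The 3 genes thus shared their direction in each pair, lower with curcumin in *GFI1-36S* and *-KD* and higher in *GFI1-36N*. Other X-linked genes also ranked low, with a median of 20.4 to 27.7 over the 254 to 348 with a peak. The median change over X-linked genes was −10.8 in *GFI1-36S*, 2.03 in *GFI1-36N* and −3.47 in *GFI1-KD*. Whether X-linked members differ from other X-linked genes was not tested.

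Median levels differed between the complexes, and complex I had the lowest median in 4 of the 6 libraries. In *GFI1-36N* vehicle the median rank of members with a peak was 55.4 in complex I, 85.9 in complex II, 74.1 in complex III, 77.3 in complex IV and 72.2 in complex V. The 4 libraries with complex I lowest were *GFI1-36N* vehicle and curcumin, *GFI1-36S* curcumin and *GFI1-KD* vehicle, whereas complex IV was lower in *GFI1-36S* vehicle (58.2 against 59.4) and in *GFI1-KD* curcumin (57.5 against 57.8). The 7 core subunits of complex I, which carry the electron path and exist also in bacteria, had medians of 69.2 to 80.7, and the 27 accessory subunits with a peak had 55.4 to 61.4. The ranges within complex I were wide. The core gene *Ndufs8* ranked between 24.5 and 47.3 and the core gene *Ndufs3* between 76.9 and 88.3, so that core and accessory members overlapped.

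Many member promoters were shared with another gene. A start site of another protein-coding gene lay within 1 kb at 27 members (31.8%), against 12.3% of all genes and 23.4% of those with a peak in all libraries. Each of the 27 had at least 1 such neighbour on the opposite strand. Among these neighbours were further genes of mitochondria, namely *Mrpl47* beside *Ndufb5* and *Mrpl36* beside *Ndufs6* (both mitochondrial ribosome), and *Timm8b* beside *Sdhd* (protein import). *Gabpa*, which encodes the DNA-binding part of GABP, starts beside *Atp5j*. At such promoters the peak cannot be assigned to one of the genes. Members with a neighbour had a median rank of 73.1 to 82.6 in the 6 libraries and those without 57.8 to 65.9.

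Promoter H3K9ac with curcumin and with vehicle was compared within each genotype. In the *GFI1-36S* pair, 77 members had a peak with vehicle, curcumin or both, and their median change was −0.249 rank points, against −6.61 over all 11608 genes. Curcumin ranked 20 members lower by at least 10 points and 16 higher, where 41.4% and 15.0% of all genes did so. The share of members ranked lower was thus below that of all genes, in a pair in which most genes ranked lower. In *GFI1-36N* mice the median change was 5.46 against 1.89 over 12022 genes, with 9 members lower (all genes, 11.3%) and 22 higher (all genes, 19.3%). In *GFI1-KD* mice it was −0.73 against −2.34 over 11908 genes, with 8 members lower (all genes, 20.6%) and 10 higher (all genes, 9.47%). As percentages of the 77 members, those ranked lower made up 26.0%, 11.7% and 10.4% and those ranked higher 20.8%, 28.6% and 13.0% in *GFI1-36S*, *-36N* and *-KD*. Genes with a peak in all 6 libraries, which are closer to the members in level, gave 40.3%, 12.5% and 20.3% lower and 16.9%, 21.1% and 10.4% higher.

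The split into higher and lower depended on the genes ranked, since a rank is set by every gene with a peak in its list. When the 9341 genes with a peak in all 6 libraries were ranked among themselves, all genes divided evenly. Of the 74 members in that set, 12 were then lower and 27 higher in *GFI1-36S* (all genes, 26.4% and 26.5%), 10 lower and 22 higher in *GFI1-36N* (18.1% and 18.7%), and 5 lower and 15 higher in *GFI1-KD* (16.8% and 16.5%). The medians of change were 2.96, 4.05 and 1.16, against −0.25, −0.01 and 0.07 over all genes. The *GFI1-KD* median thus changed sign with this scale, and that of *GFI1-36S* was near 0 on the first scale.

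**Figure D3:**
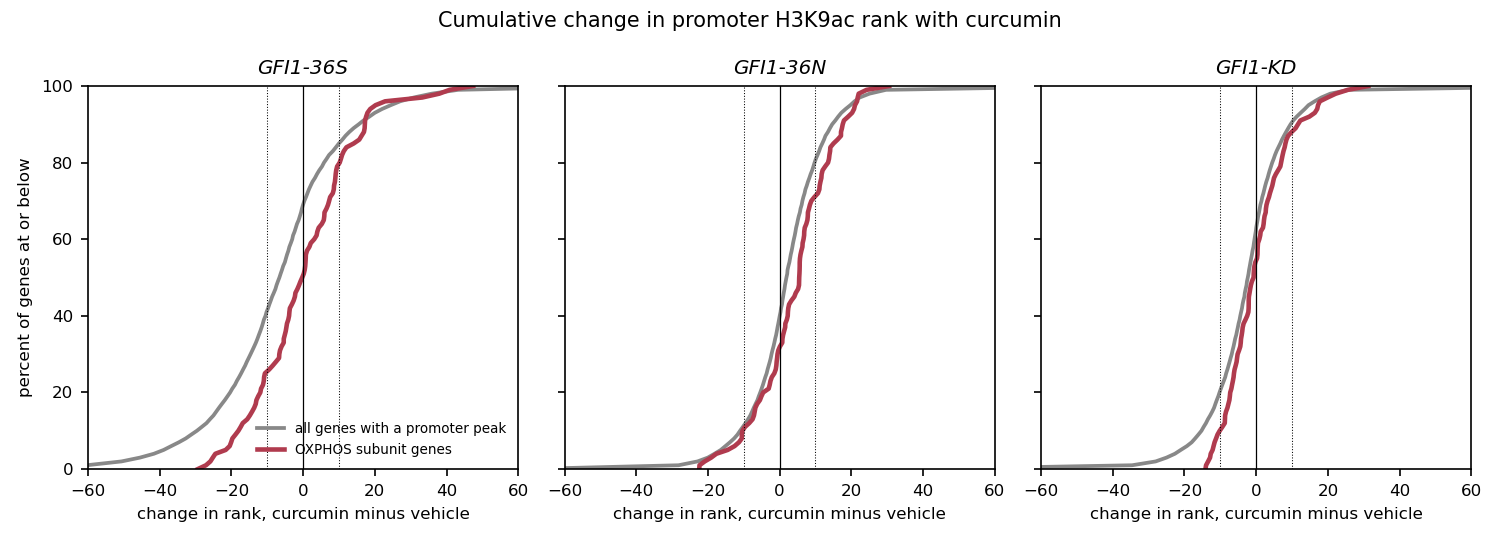
Cumulative share of genes (percent, vertical) at or below each change in promoter H3K9ac rank (curcumin minus vehicle, rank points, horizontal) for the 77 OXPHOS subunit genes with a peak in the pair (red) and for all genes with a promoter peak (grey), in 1 panel per genotype; dotted lines mark 10 points in either direction. The member curve lies to the right of the grey one around the median in each panel, at −0.249 against −6.61, 5.46 against 1.89 and −0.73 against −2.34.

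Other markers moved in the same pairs. In *GFI1-36S* the summed rank of the 14 T-cell markers was 53.1 with vehicle and 633 with curcumin, that of 18 neutrophil markers 275 and 0, and that of 12 erythroid markers 280 and 103. In *GFI1-KD* the erythroid sum was 323 and 113, with a peak at 12 and 6 of 12 genes, and *Hbb-bt* (beta globin), *Alas2* (heme synthesis) and *Gata1* had none with curcumin. The neutrophil sum in that pair was 428 and 174. Of the 17 neutrophil markers with a peak there, 12 ranked lower and 5 higher, and *S100a8* had the largest fall, from 74.9 to 10.2. The *GFI1-36N* sums with vehicle and curcumin were 63.3 and 54.9 for T-cell, 198 and 295 for neutrophil and 137 and 208 for erythroid markers. Of the 13 neutrophil markers with a peak in that pair, 10 ranked higher and 3 lower, and *Csf3r* had the largest rise, from 53.6 to 99.9. The erythroid sum there rose while the number of these genes with a peak went from 10 to 7 of 12, and 5 of the 11 with a peak in either library ranked lower. The summed ranks of 10 stem and progenitor markers were 469 and 4.85 in *GFI1-36S*, 429 and 479 in *GFI1-36N* mice, while *GFI1-KD* mice had 240.0 and 397. The *GFI1-KD* sum rose although 5 of these 10 genes ranked lower and 5 higher, with a median change of 1.26. *Hoxa7* and *Hoxa9* had the largest rises there, by 91.99 and 88.19 points. Both had the same rank and 252 fragments with curcumin, and whether they share a peak was not tested. The part of these shifts in the changes of the OXPHOS genes was not tested.

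Counting error covers many of the rank changes of single members. In *GFI1-36S* the fragment ratio relative to the median promoter had an interval above 1 at 10 of the 16 members ranked higher, and an interval below 1 at 1 of the 18 members ranked lower that had a peak in both libraries. In *GFI1-36N* this held for 4 of 21 higher and 3 of 9 lower members with a ratio, and in *GFI1-KD* for 3 of 10 higher and 2 of 8 lower members. Over all 74 members with recovered counts in each pair, 12 intervals lay above 1 in *GFI1-36S* (15.9% of all genes) and 1 below (13.5%). In *GFI1-36N* 4 lay above (7.30%) and 3 below (7.08%), and in *GFI1-KD* 3 lay above (7.93%) and 2 below (8.12%). The median relative ratio of the members was 1.10, 1.04 and 1.01.

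In *GFI1-36S* mice the largest increases were found at genes of complexes IV and V. *Cox6c*, a small subunit of complex IV, ranked 40.4 with vehicle (154 fragments at the summit) and 87.8 with curcumin (168 fragments). Since the median promoter of this pair had 0.556 times the fragments with curcumin, its relative ratio was 1.96 (95% interval 1.57 to 2.46). *Atp5g2*, a gene for the ring of ATP synthase, ranked 58.0 and 96.8, with 197 and 234 fragments and a relative ratio of 2.14 (1.76 to 2.60). *Atp5j2*, the f subunit, ranked 51.6 and 88.8 with a relative ratio of 1.84 (1.42 to 2.39). *Ndufb5*, an accessory subunit of complex I, ranked 58.9 and 78.4, and its interval also lay above 1. *Cyc1*, outside the rule but part of complex III, ranked 55.2 and 95.7.

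*Atp5g2* is shown as an example of an NRF1 motif within the printed stretch, and was chosen by its mean rank and not by its relative ratio. The line gives chr15:102671018-102671197 (minus strand) of GRCm38.p6 with the motif in capitals, which begins 41 bases before the start.
Atp5g2: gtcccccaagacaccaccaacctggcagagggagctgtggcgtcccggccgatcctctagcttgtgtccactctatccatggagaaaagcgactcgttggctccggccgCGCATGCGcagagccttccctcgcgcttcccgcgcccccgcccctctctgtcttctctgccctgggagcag
*Atp5g2* also ranked higher with curcumin in the other pairs, by 8.31 points (86.8 to 95.1) in *GFI1-36N* and 8.25 points (42.5 to 50.8) in *GFI1-KD*, with intervals of the relative ratio that included 1. By rank, both *GFI1-KD* libraries and the *GFI1-36S* vehicle library were low and the other 3 libraries high. Fragments did not follow rank in *GFI1-36S* vehicle. There, 197 fragments gave *Atp5g2* a rank of 58.0 and 154 gave *Cox6c* 40.4, while 182 gave *Ndufa13* 87.4. Fold enrichment, by which genes were ranked, also depends on the local background.

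The largest decreases in *GFI1-36S* were smaller in relation to counting error. *Uqcrq*, a subunit of complex III near the quinone sites, ranked 96.2 with vehicle and 66.9 with curcumin, with 215 and 85 fragments and a relative ratio of 0.71 (0.547 to 0.919). It ranked between 93.3 and 97.7 in the other 4 libraries, so that the *GFI1-36S* curcumin library was the single low one. *Ndufa12* (51.6 and 25.2) and *Ndufa13* (87.4 and 62.0), accessory subunits of complex I, and *Atp5s* (48.4 and 27.5) had intervals that included 1. *Uqcrc1*, a core protein of complex III, ranked 64.1 and 39.5 while its relative fragment ratio was 1.26 (0.963 to 1.64). There the rank and the fragments went in different directions, since fold enrichment also depends on the local background.

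Peaks present in only 1 library of a pair were limited to the weakly marked isoforms. *Cox4i2*, *Cox6b2* and *Cox7a1* had a peak with vehicle and none with curcumin in *GFI1-36S*. A peak in exactly 1 library of that pair, whichever it was, was found at 18.2% of all genes. In *GFI1-36N* *Cox4i2* and *Cox6b2* had a peak with curcumin alone, and in *GFI1-KD* *Cox4i2* had one with curcumin alone. The shares of all genes with a peak in exactly 1 library, whichever it was, were 7.57% and 7.92% in these pairs. The summits of *Cox4i2* held 22, 24 and 28 fragments where present, and those of *Cox6b2* 27 to 61. These are low numbers beside the members in general, whose summits mostly held more than 100 fragments outside the *GFI1-36S* curcumin library.

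In *GFI1-36N* mice, 7 of the 16 complex V genes with a peak ranked higher with curcumin by 10 points or more (all genes, 19.3%) and 1 lower (all genes, 11.3%). *Atp5a1*, the alpha subunit of the catalytic head, ranked 75.9 and 96.6 with 163 and 221 fragments, and its relative ratio of 1.35 had an interval above 1. *Atp5b*, the catalytic beta subunit, ranked 75.3 and 86.4 with 162 and 182 fragments, and its interval did not lie above 1. Of the 7 complex V genes ranked higher, *Atp5a1* alone had an interval above 1. *Ndufa4* had the largest change of all members, from 39.6 to 70.1, with 124 and 176 fragments and a relative ratio of 1.41 (1.11 to 1.79). *Ndufs8*, an iron-sulfur core subunit of complex I, ranked 24.5 and 46.8 with a relative ratio of 1.56 (1.15 to 2.12). *Ndufv3* (53.6 and 75.4) and *Sdha* (61.6 and 83.3), the flavoprotein of complex II, had relative ratios of 1.27 (0.9998 to 1.62) and 1.25 (0.996 to 1.58), whose intervals just included 1.

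Decreases in *GFI1-36N* were fewer. *Sdhb*, the iron-sulfur subunit of complex II, ranked 87.1 with vehicle and 64.8 with curcumin, with 191 and 143 fragments and a relative ratio of 0.74 (0.595 to 0.929). *Atp5h*, a stalk subunit of ATP synthase, ranked 73.6 and 51.1 (0.77, 0.603 to 0.979), and *Ndufa7* 88.6 and 70.7 (0.78, 0.627 to 0.969). *Ndufa7* shares its promoter with *Rps28*, a gene of the cytosolic ribosome. *Ndufa3* (62.7 and 43.1) and *Ndufs6* (63.9 and 50.2) had intervals that included 1. Within complex II, *Sdha* and *Sdhb* thus went in opposite directions in this pair.

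In *GFI1-KD* mice 59 of the 77 members stayed within 10 points (all genes, 69.9%), against 46 in *GFI1-36N* (69.4%) and 41 in *GFI1-36S* (43.6%). *Ndufs6*, an accessory subunit on the iron-sulfur arm of complex I, had the largest change in *GFI1-KD*, from rank 56.0 with vehicle to 87.3 with curcumin, with 171 and 182 fragments. The median promoter of this pair had 0.714 times the fragments with curcumin, so that its relative ratio was 1.49 (1.20 to 1.85). *Ndufv3* followed with 55.2 and 72.9 (1.26, 1.005 to 1.58). *Atp5f1*, a stalk subunit, ranked 72.0 and 92.8 and *Atp5s* 51.2 and 68.3, with intervals that included 1. *Uqcrc1* ranked 34.0 and 57.8, but its relative fragment ratio was 1.01 (0.803 to 1.26). Its summit held 192 fragments at a fold enrichment of 16.2 with vehicle and 138 fragments at 21.2 with curcumin.

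Of the decreases in *GFI1-KD*, *Ndufa1* from 24.3 to 11.6 had an interval below 1 (0.65, 0.439 to 0.955), as did *Cox6b2* from 16.1 to 5.39 (0.62, 0.379 to 0.990). *Ndufb11* (41.9 and 27.7), *Ndufa4* (54.7 and 40.8), *Uqcr11* (44.4 and 31.4), a small subunit of complex III, and *Cox6c* (46.0 and 34.0) had intervals that included 1. No member of complex II ranked lower in this pair, and all 4 had a change above 0, from 0.509 for *Sdha* to 8.01 for *Sdhb*.

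**Figure D4:**
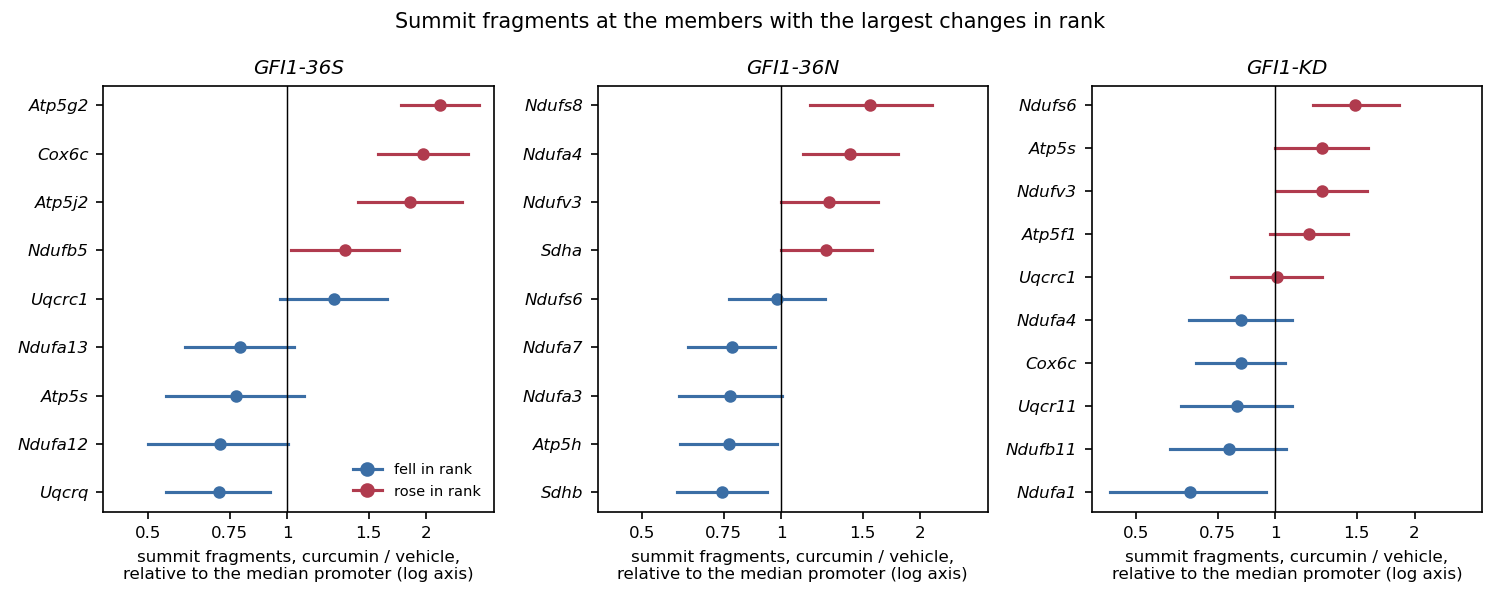
Ratio of summit fragments, curcumin over vehicle, relative to the median promoter of the pair (log axis), for members among the 5 largest decreases (blue) and increases (red) in rank in each genotype, with a peak in both libraries; bars are 95% counting intervals. *Atp5g2* (2.14) and *Cox6c* (1.96) in *GFI1-36S* lie farthest from 1, while *Uqcrc1* in *GFI1-KD* (1.01) lies at it.

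The *GFI1-36N* and *-KD* pairs, which share no library, were set side by side. In both pairs, 4 members ranked higher by at least 10 points, where 2.44% of 11192 genes with a peak in each pair did so. They were *Ndufb5* (17.7 points in *GFI1-36N* and 16.9 in *GFI1-KD*), *Ndufv3* (21.8 and 17.8), *Ndufs7* (17.5 and 11.8) and *Atp5j2* (12.7 and 11.6). *Ndufb5* and *Atp5j2* ranked higher in *GFI1-36S* as well, by 19.5 and 37.2 points (all genes higher in all 3 pairs, 0.617%). With ranks among genes with a peak in all libraries, these 4 were joined by *Ndufs8* and *Cox6a1* in both pairs, and by *Ndufs8* in all 3. No member ranked lower in both *GFI1-36N* and *GFI1-KD* (all genes, 2.86%) or in all 3 pairs (all genes, 1.68%). The relative fragment ratios of *Ndufb5* were 1.34, 1.23 and 1.31 in *GFI1-36S*, *-36N* and *-KD*, with intervals above 1 in *GFI1-36S* and *-KD*. None of the 4 members ranked higher in both pairs had an interval above 1 in *GFI1-36N*. In *GFI1-KD* those of *Ndufb5* and *Ndufv3* lay above 1, and those of *Ndufs7* and *Atp5j2* did not.

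The promoters of *Ndufb5* and *Ndufv3* are shown because these members had the largest changes of one sign common to *GFI1-36N* and *-KD*. The lines give chr3:32736913-32737092 (plus strand) and chr17:31519965-31520144 (plus strand) of GRCm38.p6. Neither window holds an NRF1, YY1 or ETS motif as spelled above.
Ndufb5: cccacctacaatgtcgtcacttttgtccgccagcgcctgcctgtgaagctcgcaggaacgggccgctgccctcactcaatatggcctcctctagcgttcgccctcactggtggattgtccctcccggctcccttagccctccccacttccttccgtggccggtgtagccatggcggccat
Ndufv3: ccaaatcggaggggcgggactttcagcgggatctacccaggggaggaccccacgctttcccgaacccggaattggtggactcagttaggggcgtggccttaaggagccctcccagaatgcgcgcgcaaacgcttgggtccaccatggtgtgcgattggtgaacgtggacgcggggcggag
*Ndufs7* and *Atp5j2*, the other members of this group, carry the YY1 motif after the start that is printed above. *Ndufs6*, which has the same motif, ranked 13.7 points lower in *GFI1-36N* and 31.3 higher in *GFI1-KD*, so that members with the motif did not share a direction.

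Opposite directions were seen at 5 members. *Ndufa4* (30.5 in *GFI1-36N* and −13.9 in *GFI1-KD*), *Cox6b2* (20.9 and −10.7), *Uqcr11* (19.2 and −12.9) and *Atp5l* (14.2 and −11.8), the g subunit of ATP synthase, ranked higher with curcumin in *GFI1-36N* and lower in *GFI1-KD*, a pattern of 4.66% of all genes. *Ndufs6* had the reverse pattern, whose share over all genes was not counted. With ranks among genes with a peak in all libraries, *Ndufa4*, *Uqcr11* and *Atp5l* were joined by *Atp5o*, and *Ndufs6* by *Sdhb*, while *Cox6b2* is not in that set. Whether the pairs differ was not tested, since this needs replicates. In *GFI1-36N* the fragment intervals of *Ndufa4* and *Uqcr11* lay above 1, and in *GFI1-KD* that of *Cox6b2*, alone of the 4, lay below it. The fragment ratio of *Atp5l* in *GFI1-36N* was 0.96, on the other side of 1 from its rank. Over the 77 members, 22 had a change above 0 in both pairs (all genes, 22.2%) and 12 below 0 in both (all genes, 24.9%). In all 3 pairs, 20 members stayed within 10 points (all genes, 24.4%), a share near that of all genes, among them *Cox4i1*, *Cox5a*, *Cox8a*, *Atp5c1*, *Uqcrh*, *Uqcrfs1*, *Sdhd* and *Ndufv2*.

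**Figure D5:**
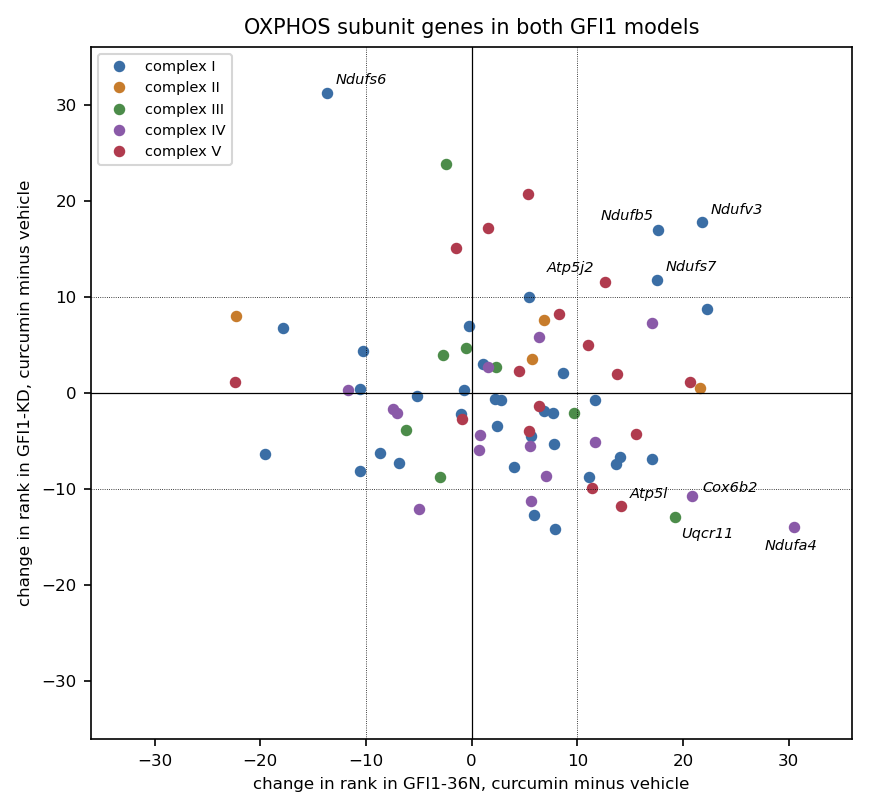
Change in promoter H3K9ac rank (curcumin minus vehicle, rank points) of each OXPHOS subunit gene in *GFI1-36N* (horizontal) and *GFI1-KD* (vertical), coloured by complex, with dotted lines at 10 points. *Ndufb5*, *Ndufv3*, *Ndufs7* and *Atp5j2* lie in the upper right corner, no member lies in the lower left corner, and *Ndufs6* (−13.7 and 31.3) stands alone at the upper left.

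A single member separated a genotype irrespective of treatment. *Ndufb4*, an accessory subunit of complex I, ranked 44.8 and 44.1 in the *GFI1-36N* libraries and between 79.1 and 86.2 in the other 4, a gap of at least 34.3 points. A gap of 10 points or more in this direction was found at 0.225% of 9341 genes. No member had both *GFI1-36N* libraries above the other 4 by this margin (all genes, 1.09%). No member set both *GFI1-36S* libraries apart (0.278% of all genes higher, 1.21% lower) or both *GFI1-KD* libraries (0.482% higher, 0.439% lower). Its summit held 164, 169 and 229 fragments with vehicle and 110, 166 and 166 with curcumin in *GFI1-36S*, *-36N* and *-KD* mice. The *GFI1-36N* libraries were therefore not low in fragments but in fold enrichment, at 16.3 and 19.4.

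Of the complexes, V was the one with the highest medians of change in *GFI1-36S* (5.05) and *GFI1-36N* (7.37), with 1.57 in *GFI1-KD*. Complex I had −0.27, 4.72 and −1.29, complex II −6.91, 6.26 and 5.58, complex III −5.70, −1.49 and 0.32, and complex IV −1.38, 5.54 and −5.14 in *GFI1-36S*, *-36N* and *-KD*. The complexes hold 4 to 34 genes with a peak, and no test between them was made.

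Genes around the complexes were counted in the same way, and their counts are to be read against the shares of all genes, which were 41.4% lower and 15.0% higher in *GFI1-36S*, 11.3% and 19.3% in *GFI1-36N* mice, 20.6% and 9.47% in *GFI1-KD* mice. Of 48 genes for assembly factors, all with a peak, curcumin ranked 16 lower (33.3%) and 8 higher (16.7%) in *GFI1-36S*, and the corresponding counts were 3 and 14 in *GFI1-36N* mice, 7 and 8 in *GFI1-KD* mice. Of 18 genes of electron carriers and ADP carriers, it ranked 7 lower and 2 higher, 2 and 4, and 1 and 3. Of 18 genes of the TCA cycle, it ranked 5 lower and 6 higher, 3 and 4, and 2 and 1. Of 21 glycolysis genes with a peak, 12 were lower and 3 higher in *GFI1-36S*, none lower and 8 higher in *GFI1-36N*, and 3 lower and 3 higher in *GFI1-KD*. Of 77 genes of the mitochondrial ribosome with a peak, 19 were lower and 21 higher, 7 and 28, and 6 and 9, and their medians of change were 0.18, 3.88 and 0.92. The genes of the cytosolic ribosome ranked above all of these, with medians of 75.4 to 90.6, and their medians of change were 3.37, 5.56 and 2.03.

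The regulators of mitochondrial biogenesis were counted against the same shares. Of 16 with a peak in *GFI1-36S*, 4 ranked lower by 10 points (all genes, 41.4%) and none higher (15.0%). In *GFI1-36N*, 2 of 16 were lower (11.3%) and 4 higher (19.3%), close to the shares of all genes, and in *GFI1-KD* 1 of 17 was lower (20.6%) and none higher (9.47%). *Nrf1* and *Yy1* had strong promoters in every library, with ranks of 96.7 to 99.4 and 93.5 to 97.8. *Gabpa* ranked 79.6, 68.1 and 75.4 with vehicle and 88.5, 83.7 and 71.1 with curcumin in *GFI1-36S*, *-36N* and *-KD* mice, values it shares with *Atp5j* through their common promoter. *Tfam*, the packaging and transcription factor of mitochondrial DNA, lay lower at 41.3 to 51.0. *Esrra*, a nuclear receptor that acts on these genes, ranked 48.4, 34.1 and 60.6 with vehicle and 24.3, 38.7 and 49.2 with curcumin. Of the coactivators, *Ppargc1b* had a peak in all libraries (9.96 to 33.1), whereas *Ppargc1a* had one in the *GFI1-KD* libraries alone (12.7 and 13.6). *Cycs*, cytochrome c, ranked 86.1, 81.2 and 84.2 with vehicle and 75.1, 90.2 and 87.6 with curcumin.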

How the data were processed

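H3K9ac ChIP-seq of whole BM from 6 groups of *NUP98-HOXD13-tg* mice was available as 1 peak list per library. The authors trimmed reads with Trim Galore, aligned them to mm10 with BWA, filtered them with SAMtools, Picard and the ENCODE black list, and called peaks with MACS2. Versions, and the control and threshold of each list, are not given in the sources used here. As deposited, each peak has the authors' fold enrichment at the summit (a ratio to the local background), its −log10 p and −log10 q values and a score, and is not normalized between libraries. Sequencing depth is not given. The score was not used.

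From these, the strongest peak overlapping 1000 bp around any TSS of each protein-coding gene (GENCODE M21, basic set) was ranked within its library by fold enrichment. Summit fragments were recovered from fold enrichment and −log10 p for 98.6% to 99.9% of all peaks in a list (tolerance 0.002 on the −log10 scale), with a median of 24 to 36 fragments. Some of the strongest promoter peaks gave no count, such as that of *Nrf1* in *GFI1-KD* vehicle (rank 96.7). Ratios of curcumin to vehicle fragments were divided by the median promoter's ratio and given exact conditional 95% intervals. No test was possible with 1 library per group. Groups were taken from the sample labels. The method was tested on simulated data.

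Motifs were searched in RefSeq promoters on both strands. Named members were the 5 largest decreases and increases per pair, members whose peak was present in 1 list of a pair and absent from the other, members past 10 points in the same or opposite directions across pairs, and the 5 highest and 5 lowest mean ranks. Other members named outside that rule (*Atp5a1*, *Atp5b*, *Ndufb4* and the genes of the shared promoters among them) were chosen after their values were seen. One gene that met the rule is not reported here. The members, gene lists and alternatives were chosen with earlier results of these data known. Alternatives changed the window, the strength measure, the peaks and genes ranked, the member list, the 10-point limit and the *GFI1-36S* labels, and those with all transcripts' TSSs or ranks among genes with a peak in all 6 libraries were added after seeing the data. Python 3.11.15, numpy 2.4.6, scipy 1.17.1, pandas 2.3.3 and matplotlib 3.10.9 were used.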

Additional observations from a re-analysis of the deposited data

Results flagged for a closer look

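The rank change from vehicle to curcumin had opposite signs in *GFI1-36N* and *GFI1-KD* for the median of the members and for 5 single genes. The *GFI1-KD* median was small, and these differences between genotypes were not tested. The median change was 5.46 rank points in *GFI1-36N* and −0.73 in *GFI1-KD*, against 1.89 and −2.34 over all genes, so that both lay above the median of all genes. With ranks among genes with a peak in all 6 libraries, the *GFI1-KD* median was 1.16, and the medians then had the same sign. *Ndufa4* changed by 30.5 and −13.9 points, *Cox6b2* by 20.9 and −10.7, *Uqcr11* by 19.2 and −12.9, *Atp5l* by 14.2 and −11.8, and *Ndufs6* by −13.7 and 31.3 in *GFI1-36N* and *GFI1-KD*. Thus 4 of 77 members were higher in *GFI1-36N* and lower in *GFI1-KD*, close to the share of all genes (4.66%). The share of all genes with the reverse pattern, that of *Ndufs6*, was not counted. Each group was 1 library, and zygosity differs by list name within the *GFI1-36N* pair. The summed rank of the neutrophil markers was 198 and 295 with vehicle and curcumin in *GFI1-36N* mice, with 10 markers higher and 3 lower. *GFI1-KD* mice had 428 and 174, with 5 neutrophil markers higher and 12 lower. The erythroid sums were 137 and 208 in *GFI1-36N* (a peak at 10 and 7 of 12 genes) and 323 and 113 in *GFI1-KD* (12 and 6). The part of these markers in the changes above was not tested.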

How the results depend on the processing

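With treatments exchanged in *GFI1-36S*, by construction, 20 members ranked higher (all genes, 41.4%) and 16 lower (all genes, 15.0%). The median was then 0.25 against 6.61 for all genes. Ranked only among genes with a peak in all 6 libraries, 27 members were higher and 12 lower in *GFI1-36S*. The shares of all such genes were 26.5% and 26.4%, and the median was 2.96 against −0.25 for all such genes. In *GFI1-KD* 5 members were lower (all such genes, 16.8%), and the median became 1.16 against 0.07. A limit of 20 points gave 4, 6 and 3 higher and 6, 2 and 0 lower members in *GFI1-36S*, *-36N* and *-KD*. Over all genes, the 20th, 3rd and 5th percentiles of change were −20.4, −20.0 and −21.0 in the same order. The 93rd, 96th and 98th percentiles were 20.0, 20.9 and 20.7. A limit of 5 points gave 28, 41 and 19 higher members and, in *-36N* and *-KD*, 15 and 24 lower. Over all genes, the 79th, 65th and 82nd percentiles were 5.27, 5.07 and 5.25. The 21st in *-36N* was −5.03 and the 37th in *-KD* −5.12. The 50 members with a peak and without a neighbouring start site gave 10 higher and 11 lower in *GFI1-36S* and 6 higher in *GFI1-KD*. The shares of all genes were 15.0%, 41.4% and 9.47% in the same order. With the 20354 strongest peaks of each list, 13 members ranked lower and 23 higher in *GFI1-36S*, where 20 lower and 16 higher are reported. At that setting, as also with a window of 3 kb, 1 member had a peak in exactly 1 *GFI1-36N* library. Shares of all genes were not counted at these settings. Without assembly genes and isoforms of other tissues, the members with a peak in exactly 1 library numbered 0, 0 and 0 in *GFI1-36S*, *-36N* and *-KD*. Over the other rank alternatives, with the labels as given, the median lay between 4.80 and 5.50 in *GFI1-36N*, −1.85 and −0.24 in *GFI1-KD*, and −0.88 and 0.60 in *GFI1-36S*, where its sign was not stable. No paired analysis was possible because each group had 1 library. Counting error at the summits limits single genes, and the spread between mice is unknown.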
